A study of Homo sapiens with 18 samples.

Results

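The human mitochondrial genome encodes 37 genes, and all of them were present among the 60676 genes of the deposited expression table. They were found by taking each gene whose symbol begins with MT-, which gave 13 mRNAs, 2 rRNAs and 22 tRNAs. RNA was sequenced from 18 libraries of MDA-MB-231, MDA-MB-468 and BT20 cells, established human breast cancer lines of the triple-negative kind, which lack the oestrogen and progesterone receptors and HER2 amplification. Each line gave 3 libraries of cells that had received 20 mM nicotinamide (NAM, the amide form of vitamin B3) for 48 h, and 3 of untreated control cells. The labels place the control RNA before the treatment, so that NAM and 48 h of further culture cannot be told apart. RPMI was the medium of BT20 and DMEM that of both MDA-MB lines, each with fetal bovine serum, so that line and medium cannot be told apart between lines either. The labels name no other agent and no genetic change in any group. The labels do not say whether replicates came from separate cultures, and the p-values therefore measure the spread between these libraries, which may be technical.

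Mitochondrial DNA (mtDNA) is a small circle whose strands are both transcribed, by a polymerase of its own, into long RNAs that carry many genes. Most tRNA genes sit between the mRNA and rRNA genes, and cutting the tRNAs out releases the mRNAs and rRNAs on either side. The mRNAs encode core subunits of the respiratory chain and ATP synthase (complexes I, III, IV and V), whose remaining subunits come from the nucleus, as do all the proteins that copy, transcribe, process and translate mtDNA. In cells with active respiration these transcripts are among the most abundant, and they were so here: in 16 libraries 12 of the 13 mRNAs, and in the other 2 libraries 11 of them, were among the 50 genes with the highest FPKM (fragments scaled by gene length and by the reads of the library), together with both rRNAs.

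The libraries held between 10864143 and 21755168 reads on protein-coding genes (median 16640628), which is the total the FPKM values refer to. EPCAM, CDH1 and the keratins KRT8, KRT18 and KRT19 all had a median FPKM of at least 1 in BT20 and MDA-MB-468. MDA-MB-231 had 4 of these 5, with CDH1 near 0, and had VIM at up to 285 FPKM. PGR was listed at 0 in all libraries, ESR1 was at most 1.87 FPKM and ERBB2 8.7 to 31.7 FPKM, and of 11 markers of other cell types only COL1A1 reached a median of 1, in BT20 and MDA-MB-468. Libraries numbered 1 stood apart: they had the lowest mean correlation with the other libraries of their group in 5 of the 6 groups (BT20 NAM was the exception). They also had the fewest protein-coding reads in every group, for example 11313668 in MDA-MB-231 control library 1 against 18896896 and 18971495 in control libraries 2 and 3. In the control group of each line, all 13 mtDNA mRNAs were above their group mean in the library numbered 1, by a median on the log2 scale of 0.58 for MDA-MB-231, 0.19 for MDA-MB-468 and 0.30 for BT20. In MDA-MB-231 NAM library 1 that median was 0.36, again with all 13 above. Results that rest on these libraries are given with and without them.

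The arrangement of the genes bears on what could be counted, since the reads were 76 bases long and the tRNA genes were 59 to 75 bases long. The 6 tRNAs with a median of at least 20 reads over the 18 libraries are shown here because the tRNA results turn on them. Sequences are from the mitochondrial chromosome of GRCh38, each given 5′ to 3′ on its own strand, with the anticodon in capitals.
MT-TQ: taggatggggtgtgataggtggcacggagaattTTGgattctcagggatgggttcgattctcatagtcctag
MT-TS1: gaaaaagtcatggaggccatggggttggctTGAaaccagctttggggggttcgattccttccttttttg
MT-TY: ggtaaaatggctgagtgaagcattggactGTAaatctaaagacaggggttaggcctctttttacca
MT-TE: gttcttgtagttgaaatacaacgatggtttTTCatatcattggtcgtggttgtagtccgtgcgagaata
MT-TP: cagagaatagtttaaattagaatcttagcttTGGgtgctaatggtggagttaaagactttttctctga
MT-TT: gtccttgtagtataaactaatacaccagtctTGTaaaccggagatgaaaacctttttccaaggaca
MT-TQ (chrM:4329-4400, minus strand) carries glutamine and MT-TS1 (chrM:7446-7514, minus strand) serine. MT-TY (chrM:5826-5891, minus strand) carries tyrosine, MT-TE (chrM:14674-14742, minus strand) glutamate and MT-TP (chrM:15956-16023, minus strand) proline. MT-TT (chrM:15888-15953, plus strand) carries threonine and is the only 1 of the 6 on the strand that also bears the rRNAs and 12 of the 13 mRNAs. The remaining mRNA, MT-ND6, lies on the minus strand.

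Neighbouring mtDNA genes also share bases, and a read over a shared base may be counted for neither gene. The overlaps shown next are the 3 that involve more than 1 base, each with 20 bases on either side on the plus strand and the shared bases in capitals.
MT-ATP8/MT-ATP6: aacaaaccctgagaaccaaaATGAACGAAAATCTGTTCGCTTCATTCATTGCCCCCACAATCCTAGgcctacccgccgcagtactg
MT-ND4L/MT-ND4: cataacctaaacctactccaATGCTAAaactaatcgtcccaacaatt
MT-TI/MT-TQ: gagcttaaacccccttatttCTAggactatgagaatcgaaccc
MT-ATP8 and MT-ATP6 share 46 bases (chrM:8527-8572), starting at the ATG of MT-ATP6 and ending with the stop codon of MT-ATP8, out of the 207 bases of MT-ATP8. MT-ND4L and MT-ND4 share 7 bases (chrM:10760-10766) out of the 297 of MT-ND4L. MT-TI and MT-TQ share 3 bases (chrM:4329-4331) on opposite strands. MT-ATP8 had the lowest FPKM of the 13 mRNAs in all 18 libraries, although MT-ATP6, which human cells carry on the same bicistronic mRNA, stood between rank 5 and rank 8. The deposited FPKM divide by the full length of MT-ATP8, shared bases included.

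Composition split the mRNAs by strand. The 12 plus-strand mRNAs held 6.3 to 16.2% G and 29.5 to 36.0% C on their coding strand, against 35.6% G and 7.0% C in MT-ND6. In 6 mRNAs (MT-ND1, MT-ND2, MT-CO3, MT-ND3, MT-ND4 and MT-CYB) the annotated length was not a multiple of 3, and the last codon was a T or TA that the poly(A) tail completes to a stop codon in human mitochondria.

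Among the 9 control libraries MT-CO2, a core subunit of cytochrome c oxidase (complex IV), had the highest mean FPKM (2560.0). MT-CO3 (2049.7) and MT-CO1 (1942), the other complex IV subunits, followed, and then MT-ND4 (1757), MT-CYB (1501), MT-ATP6 (1343), MT-ND6 (1234), MT-ND2 (999), MT-ND5 (996), MT-ND1 (920.0), MT-ND3 (838), MT-ND4L (616) and MT-ATP8 (187). Neighbours in this order were not separated in every library: MT-CO2 was at rank 1 or 2, MT-CO3 at rank 1 to 5, MT-CO1 at 2 to 4, and MT-ND3 anywhere between 4 and 12. The large rRNA MT-RNR2 (1515) was above the small rRNA MT-RNR1 (674), both of which lack the long poly(A) tails of mRNAs, and MT-TS1 (1316) was the highest tRNA. These are levels per kilobase, and between long genes they compare only as counted. Copies of mtDNA in the nuclear genome exactly match 36.3% of the 76-base windows of MT-CO1 and 34.0% of MT-ND2, but none of MT-CYB or MT-ND4. The part that such copies, strand or RNA selection had in this order was not tested. For tRNAs shorter than a read these levels are not a measure of mature tRNA.

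**Figure D1:**
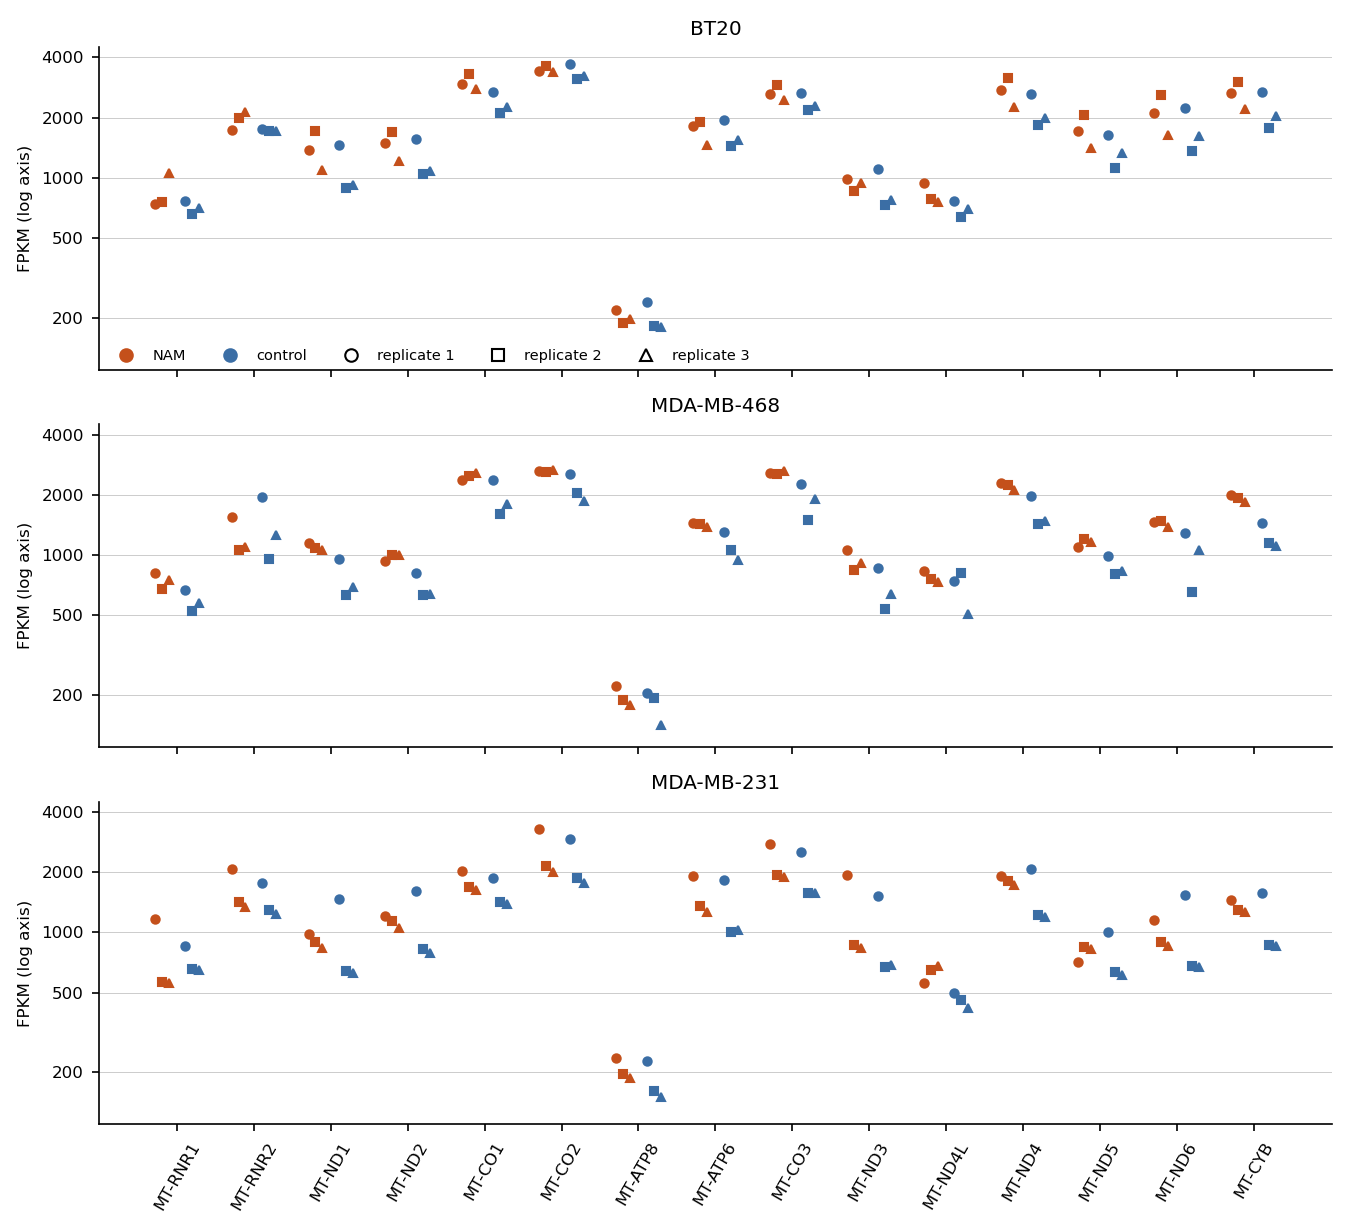
FPKM (log axis) of the 13 mtDNA mRNAs and 2 rRNAs in genome order, in 1 panel per cell line, with NAM libraries in orange left of control libraries in blue and a marker shape for each replicate number. MT-ATP8 was lowest in every library, and the circles (libraries numbered 1) of the MDA-MB-231 control group lie above the other 2 for all 13 mRNAs.

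The share of reads from mtDNA mRNAs had a higher mean in NAM than in control cells of each line, but only in MDA-MB-468 did the groups not overlap. In MDA-MB-468 the 13 mRNAs took 1.94, 1.94 and 1.93% of the protein-coding reads in NAM libraries, against 1.72, 1.26 and 1.33% in control libraries. The means were 1.94% ± 0.0112 and 1.44% ± 0.251 (SD, n = 3 each), a ratio of 1.35. In BT20 the shares were 2.48, 2.8 and 2.15% in NAM libraries, against 2.45, 1.78 and 1.94% in control libraries, a ratio of means of 1.2. The lowest NAM library of BT20 was below the highest control library. In MDA-MB-231 they were 1.81, 1.51 and 1.44% in NAM libraries, against 1.91, 1.14 and 1.12% in control libraries, a ratio of means of 1.14. Here control library 1 was the highest of all 6, and without the 2 libraries numbered 1 the ratio was 1.30. The same step gave 1.5 in MDA-MB-468 and 1.33 in BT20. The shares sum over the members and are given with no test. A share cannot tell more mtDNA mRNA per cell from less nuclear mRNA per cell, nor either from a change in the mix of cells.

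The rRNAs took 0.385% ± 0.0465 of reads in BT20 NAM and 0.337% ± 0.00751 in BT20 control libraries (SD, n = 3 each). They took 0.264% ± 0.0482 in MDA-MB-468 NAM and 0.273% ± 0.0862 in its control libraries, and 0.324% ± 0.0963 in MDA-MB-231 NAM and 0.292% ± 0.0555 in its control libraries. All these groups overlapped. The labels name a stranded total RNA kit and the methods a TruSeq RNA library kit, and how much rRNA the library step removed was not tested, so that these shares describe the libraries. The tRNA share was 0.0240% ± 0.00188 in MDA-MB-468 NAM and 0.0165% ± 0.00578 in MDA-MB-468 control libraries, with no overlap. It was 0.0277% ± 0.00358 in BT20 NAM and 0.0218% ± 0.00318 in BT20 control libraries, and 0.0178% ± 0.00594 in MDA-MB-231 NAM and 0.0169% ± 0.00918 in MDA-MB-231 control libraries, and in both lines the groups overlapped.

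**Figure D2:**
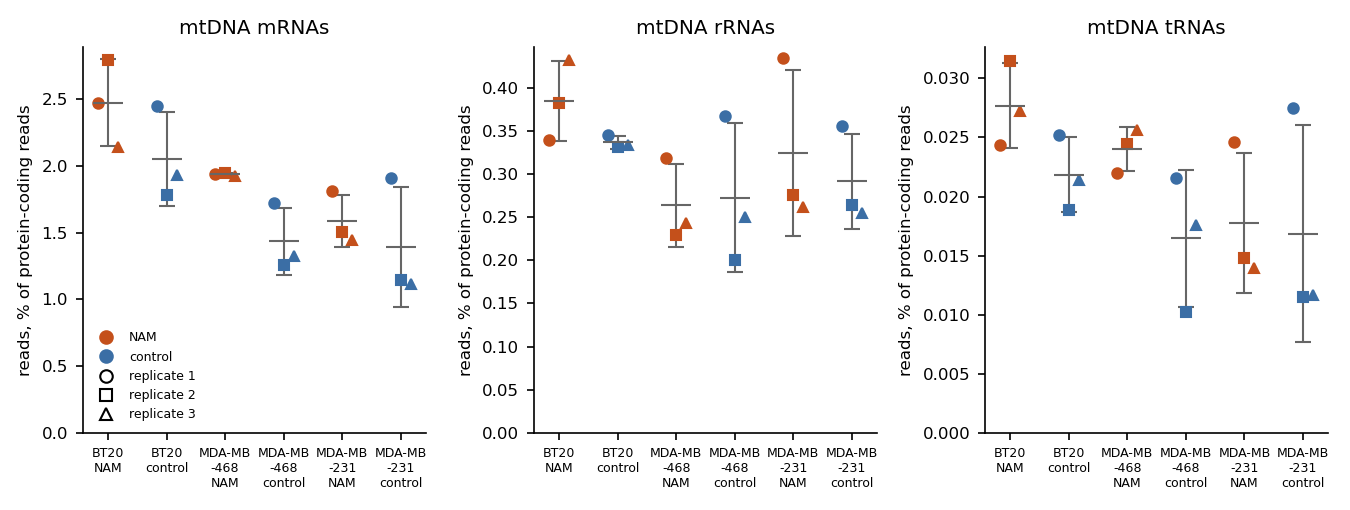
Reads of mtDNA mRNAs, rRNAs and tRNAs as a percentage of protein-coding reads, 1 point per library, with NAM (orange) left of control (blue) within each line, marker shapes for replicate numbers and a bar at each group mean. For mRNAs, MDA-MB-468 is the only line in which the 3 NAM libraries (1.93 to 1.94%) lie above all 3 control libraries (1.26 to 1.72%).

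Gene by gene, NAM and control cells were compared on log2(scaled FPKM + 1) with limma, scaling each library on nuclear genes, with p-values adjusted over all genes tested in that line. In MDA-MB-468, none of the 13 mRNAs passed an adjusted p of 0.05, where 3.52% of all 14752 genes tested were called higher in NAM cells and 5.5% lower. At an unadjusted p under 0.05 there were 6, and limma-voom on the recovered reads called 1 (9.6% of all genes). The fitted changes were above 0 for all 13 mRNAs and for 51.8% of all genes, with a median of 0.41 (range 0.08 to 0.59) beside 0.02 over all genes. Under quantile normalization 12 of the 13 were above 0 (52.8% of all genes), with a median of 0.13. With the replicate number as a block, 5 mRNAs were called higher in NAM cells (MT-CYB, MT-ND1, MT-ND2, MT-ND3 and MT-ND4), where 14.6% of all genes were called higher and 14.5% lower. The pairing behind the block was taken from these same data. NAM and control libraries did not overlap for 9 of the 13 mRNAs, all higher in NAM, a pattern that 14% of genes tested showed in that direction.

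MT-CYB, the cytochrome b subunit and only mtDNA product in complex III, had the largest fitted change. It had 1998, 1920.0 and 1834 FPKM in MDA-MB-468 NAM libraries, against 1447, 1154 and 1106 FPKM in control libraries. All 3 NAM libraries were above all 3 control libraries, and control library 1 was the nearest to them. The log2 fold change was 0.59 (SE 0.16, 95% interval 0.22 to 0.95, limma adjusted p = 0.058). With the replicate block the limma adjusted p was 0.0098, and without control library 1 it was 0.0319. It was 0.112 to 0.254 on leaving out any of the other 5 libraries, and under quantile normalization the log2 fold change was 0.29 (limma adjusted p = 0.305).

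Complex I, the NADH dehydrogenase at the entry of the chain, takes 7 of its subunits from mtDNA. MT-ND1, in the membrane arm near the ubiquinone site, had 1156, 1088 and 1065 FPKM in MDA-MB-468 NAM libraries, against 952, 629 and 694 FPKM in control libraries. Its log2 fold change was 0.51 (SE 0.18, limma adjusted p = 0.131, with the replicate block 0.0247), and the groups did not overlap. MT-ND2 had 937, 1001 and 999 FPKM in NAM libraries, against 814, 635 and 637 FPKM in control libraries, a log2 fold change of 0.45 (SE 0.16, limma adjusted p = 0.125, with the replicate block 0.0383). MT-ND2, MT-ND4 and MT-ND5 are the large subunits of the proton-pumping arm. MT-ND4 had 2303, 2227 and 2125 FPKM in NAM libraries, against 1979, 1424 and 1481 FPKM in control libraries, a log2 fold change of 0.41 (SE 0.17, limma adjusted p = 0.188, with the replicate block 0.043). MT-ND5 had 1103, 1206 and 1159.7 FPKM in NAM libraries, against 991, 808 and 833 FPKM in control libraries, a log2 fold change of 0.35. Both showed no overlap, with control library 1 again the highest control. MT-ND6, the minus-strand gene, had 1465, 1484 and 1376 FPKM in NAM libraries, against 1286, 655 and 1057 FPKM in control libraries, a log2 fold change of 0.53 (SE 0.23, limma adjusted p = 0.217).

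The short subunits MT-ND3 and MT-ND4L overlapped between groups. MT-ND3 had 1066, 842 and 915 FPKM in MDA-MB-468 NAM libraries, against 862, 540.0 and 638 FPKM in control libraries, where NAM library 2 was below control library 1. Its log2 fold change was 0.43 (limma adjusted p = 0.229, with the replicate block 0.0286). MT-ND4L had 837, 761 and 731 FPKM in NAM libraries, against 743, 816 and 511 FPKM in control libraries, with a log2 fold change of 0.14.

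Of the complex IV subunits, MT-CO1 carries the haem and copper centres where oxygen is reduced, and MT-CO2 accepts electrons from cytochrome c. MT-CO1 had 2378, 2496 and 2558 FPKM in MDA-MB-468 NAM libraries, against 2384, 1599 and 1792 FPKM in control libraries, which overlapped through control library 1. MT-CO2 had 2645, 2611 and 2666 FPKM in NAM libraries, against 2532, 2054 and 1866 FPKM in control libraries. MT-CO3 had 2563, 2527 and 2634 FPKM in NAM libraries, against 2269.7, 1499 and 1908 FPKM in control libraries. For MT-CO2 and MT-CO3 the groups did not overlap, and the log2 fold changes of the 3 were 0.33, 0.25 and 0.41. The ATP synthase subunit MT-ATP6, part of the proton channel, had 1451, 1422 and 1387 FPKM in NAM libraries, against 1304, 1062 and 945 FPKM in control libraries, a log2 fold change of 0.32 with no overlap. MT-ATP8, a small subunit of the same membrane part, had 223, 188 and 178 FPKM in NAM libraries, against 204, 193 and 143 FPKM in control libraries, a log2 fold change of 0.08. None of these 5 passed the limma test.

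Pairing libraries by replicate number gave the same picture for most genes in MDA-MB-468. NAM was higher than control for 12, 11 and 13 of the 13 mRNAs in pairs 1, 2 and 3, and for 10 mRNAs in all 3 pairs. The median difference was 0.14 in pair 1, against 0.56 in pair 2 and 0.47 in pair 3 on the log2 scale. With both libraries numbered 1 left out, 9 of the 13 mRNAs were called higher in NAM cells (median log2 fold change 0.51), where 10.4% of all genes were. Those libraries were left out because earlier results of these data had shown that they stand apart.

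In MDA-MB-231 none of the 13 mRNAs was called by limma, where 0.606% of the 13869 genes tested were called higher in NAM cells and 0.829% lower. At an unadjusted p under 0.05 there was 1 (MT-ND4L), and limma-voom called none (1.98% of all genes). The fitted changes were above 0 for all 13 and for 50.4% of all genes, and the median over the 13 was 0.15 (range 0.05 to 0.39). Under quantile normalization 10 were above 0 (49.1% of all genes). With the replicate block the count stayed at 0, with 1 at an unadjusted p under 0.05, where 12.2% of all genes were called higher and 10.6% lower. MT-ND4L was the only mRNA whose groups did not overlap, where 14.8% of genes showed this in the direction of NAM. It had 562, 646 and 681 FPKM in NAM libraries, against 496, 458 and 420.4 FPKM in control libraries, a log2 fold change of 0.39 (SE 0.16, 95% interval 0.005 to 0.78, limma adjusted p = 0.257). MT-ND4L was also the mRNA in which control library 1 of this line stood apart least.

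For the other 12 mRNAs of MDA-MB-231 the control library numbered 1 lay within or above the NAM libraries. MT-CYB had 1452, 1299 and 1265 FPKM in NAM libraries, against 1564, 869.7 and 855 FPKM in control libraries. MT-ND1 had 982, 893 and 839 FPKM in NAM libraries, against 1465, 642 and 627 FPKM in control libraries. In both genes control library 1 was the highest of the 6 and control libraries 2 and 3 were the lowest. MT-ND5 had 713, 846 and 823 FPKM in NAM libraries, against 1000.3, 636 and 611 FPKM in control libraries. MT-CO1 had 2027, 1693 and 1636 FPKM in NAM libraries, against 1858, 1412 and 1388 FPKM in control libraries. MT-ND3 was the most spread, with 1926, 865 and 839 FPKM in NAM libraries, against 1525, 674 and 691 FPKM in control libraries. In pairs of the same number, NAM was higher for 7, 13 and 13 of the 13 mRNAs. Without both libraries numbered 1, 6 mRNAs (MT-CYB, MT-ND1, MT-ND2, MT-ND4, MT-ND4L and MT-ND5) were called higher in NAM cells, where 16% of all genes were, and the median over the 13 was 0.28.

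In BT20 none of the 13 mRNAs was called by limma either, where 7.09% of the 14965 genes tested were called higher in NAM cells and 9.3% lower. None had an unadjusted p under 0.05, and limma-voom called none (18.4% of all genes). The fitted changes were above 0 for 12 of the 13 and for 48.9% of all genes, with a median of 0.22 (range -0.03 to 0.32) beside -0.01 over all genes. Under quantile normalization 9 were above 0 (52.2% of all genes). No mRNA had groups that did not overlap, where 19.1% of genes showed this in the direction of NAM. MT-CO1 came nearest, with 2946, 3316 and 2789.8 FPKM in NAM libraries, against 2669, 2117 and 2259 FPKM in control libraries. For MT-CO1 every NAM library was above every control library as deposited, and scaling on nuclear genes removed that separation (log2 fold change 0.31, SE 0.16, limma adjusted p = 0.206). MT-CYB had 2656, 3007 and 2208 FPKM in NAM libraries, against 2690.0, 1784 and 2038 FPKM in control libraries. MT-CO2 had 3429.5, 3605 and 3384 FPKM in NAM libraries, against 3693, 3118 and 3220.3 FPKM in control libraries, and its log2 fold change was 0.01. In both genes control library 1 lay among or above the NAM libraries.

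**Figure D3:**
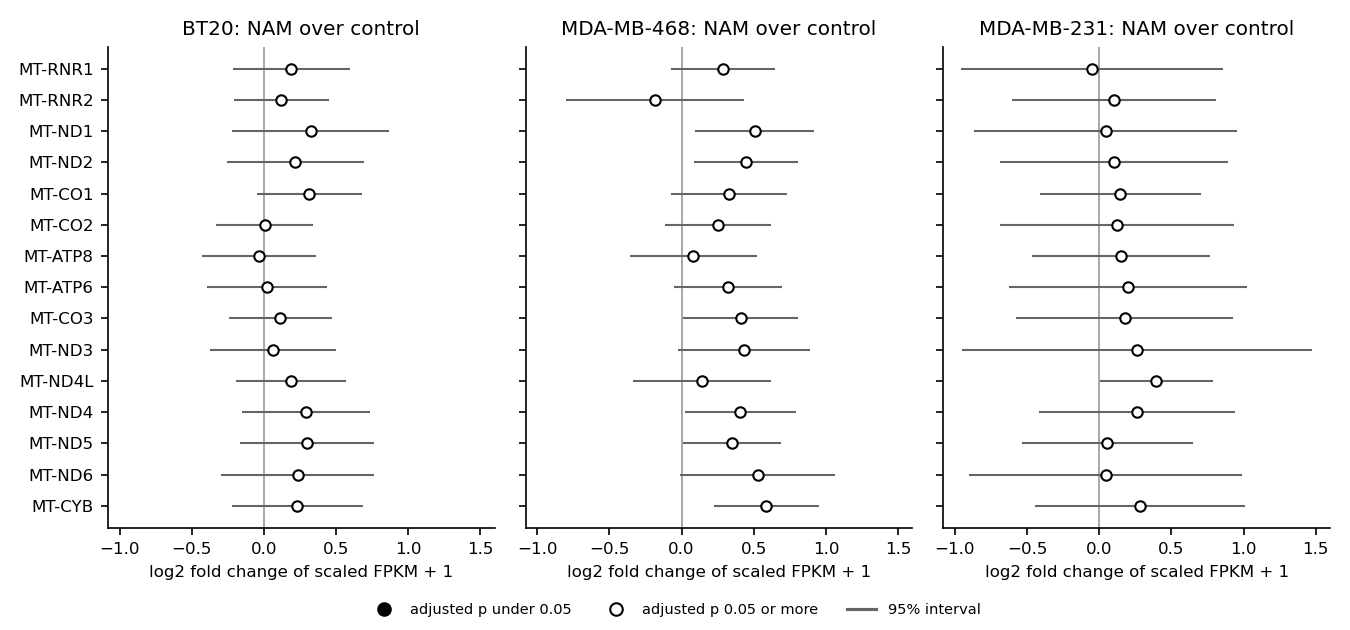
log2 fold change of NAM over control with its 95% interval for the 13 mtDNA mRNAs and 2 rRNAs in each line, from limma on log2(scaled FPKM + 1). Every point is open (adjusted p of 0.05 or more), 38 of the 39 mRNA points lie above 0, and the largest is MT-CYB in MDA-MB-468 at 0.59.

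The response of the mtDNA mRNAs did not differ detectably between lines. In a model of all 18 libraries with line-by-treatment terms, none of the mtDNA genes tested was called by limma in any of the 3 differences between lines, with or without the replicate block, nor by limma-voom. Of all genes, 4.72% were called for MDA-MB-468 against BT20 (11.6% with the block, 2.5% by limma-voom). For MDA-MB-231, 5.45% were called against BT20 (17.2 and 3.62%) and 5.25% against MDA-MB-468 (11 and 3.12%). The lowest limma adjusted p among the mRNAs was 0.754, 0.664 and 0.723 in the same order, and no mRNA had an unadjusted p under 0.05. A miss of the threshold does not show that the lines responded alike.

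The rRNAs were called in no line by limma or limma-voom, and neither had an unadjusted p under 0.05. MT-RNR1 had 814, 675 and 750.3 FPKM in MDA-MB-468 NAM libraries, against 667, 525 and 576 FPKM in control libraries, a log2 fold change of 0.29 (SE 0.16, limma adjusted p = 0.31). MT-RNR2 had 1548, 1059 and 1101 FPKM in NAM libraries, against 1953, 962 and 1254 FPKM in control libraries, with a log2 fold change of -0.18, so that the fitted signs of the 2 rRNAs differed in this line. In BT20 the log2 fold changes were 0.19 and 0.12 for MT-RNR1 and MT-RNR2, and in MDA-MB-231 they were -0.05 and 0.10. MT-RNR1 had 1166, 569 and 562 FPKM in MDA-MB-231 NAM libraries, against 857, 657 and 649 FPKM in control libraries. NAM library 1 was the highest of the 6 and NAM libraries 2 and 3 the lowest. Without both libraries numbered 1, MT-RNR1 was called lower in MDA-MB-231 NAM cells (log2 fold change -0.30), where 16.8% of all genes were called lower.

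The tRNA genes fell into counted and uncounted ones by their place in the genome. Reads were 0 in all 18 libraries for 8 of the 22 (MT-TV, MT-TL1, MT-TK, MT-TG, MT-TR, MT-TH, MT-TS2 and MT-TL2), which at the depth of each library allows up to 1.84 to 4.68 FPKM (3 reads). All 8 lie on the plus strand between same-strand genes within 76 bases on both sides, an arrangement that 11 tRNAs had and in which no library gave more than 35 reads. The 3 minus-strand tRNAs with no same-strand gene that close (MT-TQ, MT-TS1 and MT-TP) had 39 to 4323 reads a library. Those with such a gene on 1 side had 4 to 915 reads on the minus strand (MT-TA, MT-TY and MT-TE) and 0 to 144 on the plus strand (MT-TF, MT-TW and MT-TT). MT-TN and MT-TC, on the minus strand with a neighbour on both sides, had at most 8. An untrimmed 76-base read cannot lie within any of these genes, and the lengths left after trimming are not given in the sources used here. The part that this position, transcript levels or tRNA levels had in the counts was not tested.

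Nor can strands be told apart with certainty. The strand setting of the counting is not given in the sources used here, and 58 single-exon genes that lie within an exon of a gene on the opposite strand had a median of 0.466 of their host's FPKM (quartiles 0.0392 and 1.89). Reads counted for MT-ND6 and the minus-strand tRNAs may therefore come from plus-strand transcripts that run opposite them, and reads of each gene and its antisense partner cannot be told apart.

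**Figure D4:**
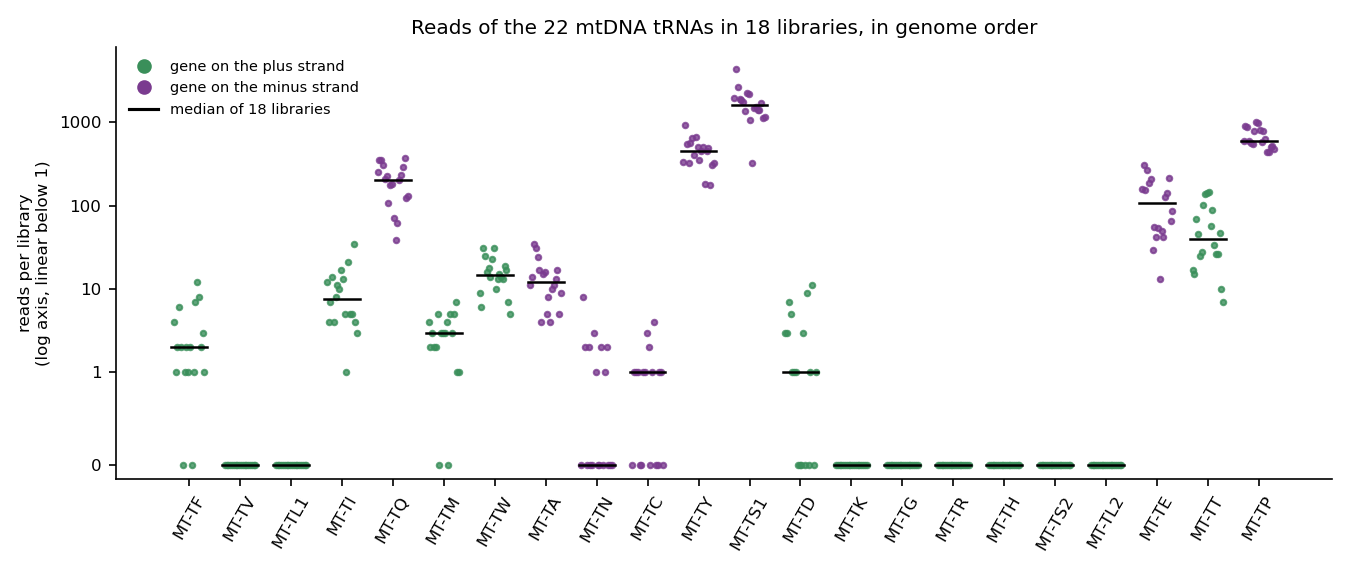
Reads per library (log axis, linear below 1) of the 22 mtDNA tRNAs in genome order, with plus-strand genes in green, minus-strand genes in purple and a line at the median of 18 libraries. The 8 genes at 0 in every library are all on the plus strand, and 5 of the 6 genes with a median of at least 20 reads are on the minus strand.

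Under NAM, 11 tRNAs were tested in MDA-MB-231, 12 in MDA-MB-468 and 13 in BT20. Over all 6 libraries of a line, only MT-TQ in MDA-MB-468 was called, where 3.52% of all genes were called higher. Groups that did not overlap toward NAM, as for MT-TQ, were seen for 14.8% of all genes in MDA-MB-231, 14% in MDA-MB-468 and 19.1% in BT20. At an unadjusted p under 0.05 there were 1, 2 and 1 in the same order, and limma-voom called 0, 1 and 0. MT-TQ in MDA-MB-468 had 108, 178 and 182 reads in NAM libraries, against 71, 39 and 61 reads in control libraries, and the groups did not overlap. In FPKM these were 117, 139 and 159 in NAM libraries, against 84.1, 37.0 and 49.7 in control libraries. The log2 fold change was 1.28 (SE 0.28, 95% interval 0.64 to 1.93, limma adjusted p = 0.0281). The call was lost without a filter on low values (limma adjusted p = 0.101) and on leaving out any single library other than control library 1 (0.0842 without control library 2, 0.139 without control library 3, 0.0541, 0.0812 and 0.126 without NAM libraries 1, 2 and 3). Without both libraries numbered 1, 5 of 8 named tRNAs were called higher in MDA-MB-468 NAM cells, where 10.4% of all genes were. These were MT-TQ (limma adjusted p = 0.000329), MT-TS1, MT-TT, MT-TW and MT-TA. In MDA-MB-231 the same step called 6 of 9 higher, where 16% of all genes were. These were MT-TQ (limma adjusted p = 0.00436), MT-TY, MT-TE, MT-TT, MT-TF and MT-TW.

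MT-TS1 had 1537, 1831 and 1969.6 FPKM in MDA-MB-468 NAM libraries, against 1321, 319.8 and 1255 FPKM in control libraries. The groups did not overlap, control library 2 was far below the others, and the log2 fold change was 1.07 (SE 0.48, limma adjusted p = 0.223). In BT20, MT-TS1 had 2059, 2879.9 and 2219 FPKM in NAM libraries, against 1981, 1471 and 1579 FPKM in control libraries, again without overlap (log2 fold change 0.45, limma adjusted p = 0.121). MT-TW, the tryptophan tRNA, had 14, 23 and 31 reads in MDA-MB-468 NAM libraries, against 10, 13 and 15 reads in control libraries. Its FPKM (16.0, 19.0 and 28.7 in NAM libraries, against 12.5, 13.1 and 13 in control libraries) did not overlap, the log2 fold change was 0.59, and it was called with the replicate block (limma adjusted p = 0.0324) but not without it (0.139). MT-TP had log2 fold changes of -0.10, 0.20 and 0.29 in MDA-MB-231, MDA-MB-468 and BT20 cells, and MT-TE had -0.30, 0.15 and -0.32 in that order.

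In MDA-MB-231, MT-TF, the phenylalanine tRNA at the start of the plus-strand transcript, had 7, 12 and 8 reads in NAM libraries, against 2, 3 and 1 reads in control libraries. The groups did not overlap and the log2 fold change was 1.64 (SE 0.35, limma adjusted p = 0.0789, with the replicate block 0.00761), on at most 12 reads. MT-TY had 257, 369 and 361 FPKM in NAM libraries, against 238, 248 and 262 FPKM in control libraries. NAM library 1 was below control library 3 as deposited and above it after scaling, and the fitted log2 fold change was 0.32 (SE 0.16, limma adjusted p = 0.349). MT-TE reversed with the libraries used: its log2 fold change was -0.30 over all 6 libraries and 0.69 without both libraries numbered 1, where control library 1 had 213 reads against 65 and 86 in control libraries 2 and 3. MT-TF and MT-TW fall below the median of 20 reads used to choose the tRNAs described, and were named after their values were seen, as were MT-TA and MT-TN. MT-TN, with at most 8 reads a library, was called higher in BT20 NAM cells with the replicate block only (log2 fold change 0.85, limma adjusted p = 0.0403). There 17% of all genes were called in either direction, and the replicate numbers were not taken as paired.

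The nuclear genes that serve mtDNA were read beside these values, from lists of known members. Of 18 genes of mtDNA transcription and replication, limma called none under NAM in any line, and limma-voom none. At an unadjusted p under 0.05 there were 2 in each line. The median log2 fold changes were -0.19 in MDA-MB-231, 0.15 in MDA-MB-468 and 0.05 in BT20. With the replicate block 2 were called higher and 2 lower in MDA-MB-468, where 14.6% of all genes were called higher and 14.5% lower. In MDA-MB-231 the block called 2 lower, where 10.6% of all genes were. MGME1, a nuclease of mtDNA replication, was called lower in both under the block (-0.54 in MDA-MB-231 and -0.42 in MDA-MB-468).

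Of the RNA processing, modification and decay genes, 3 of 37 were called higher and 1 lower in BT20, where 7.09% of all genes were higher and 9.3% lower. TRMT61B, an RNA methyltransferase (log2 fold change 0.58), TRIT1, which modifies tRNAs (0.57), and METTL15, which methylates the small rRNA (0.56), rose, and MRM1, which methylates the large rRNA, fell by 0.83. Leaving out any single BT20 library moved the count of 3 to between 0 and 6 (6 without NAM library 1, and 0 without NAM library 3 or any control library), and MRM1 was lost without control library 2 (limma adjusted p = 0.0524). In MDA-MB-468 limma and limma-voom called none of 37, with 2 at an unadjusted p under 0.05, and with the replicate block 4 were called lower (14.5% of all genes). In MDA-MB-231 they called none of 38, with 8 at an unadjusted p under 0.05, and with the block 1 was called higher and 8 lower (12.2 and 10.6% of all genes). PNPT1, a subunit of the mitochondrial RNA degradosome, had the largest negative change of these in both MDA-MB lines. Its log2 fold change was -0.88 in MDA-MB-468 (limma adjusted p = 0.00166 with the block) and -0.79 in MDA-MB-231 (0.0196 with the block). The change of PNPT1 differed from that in BT20 with the block, by -0.98 in MDA-MB-231 (limma adjusted p = 0.0107) and -1.07 in MDA-MB-468 (0.00809). LRPPRC, which stabilises mtDNA mRNAs, had -0.46 in MDA-MB-468 (0.0231 with the block), and ELAC2, which cuts the tRNA 3′ ends, had -0.56 in MDA-MB-231 (0.0311 with the block). Without the block PNPT1, LRPPRC and ELAC2 did not pass the test in these lines.

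Among translation factors MTFMT, which formylates the initiator methionine tRNA, rose in MDA-MB-468 (0.66, limma adjusted p = 0.0268) as the only 1 of 16, and was lost on leaving out any library but control library 1 (limma adjusted p = 0.0548 to 0.132). Of all genes 3.52% were called higher there. None of 15 was called in BT20 (3 at an unadjusted p under 0.05, and 1 by limma-voom) and none of 16 in MDA-MB-231 (0 and 0). With the replicate block GFM1, an elongation factor (-0.57), and the release factor MTRF1L (-0.45) were called lower in MDA-MB-231 (10.6% of all genes), and MTFMT higher and OXA1L, an inner membrane insertase (-0.38), lower in MDA-MB-468 (14.6 and 14.5%). Of the aminoacyl-tRNA synthetases, GARS1 for glycine rose by 0.91 and SARS2 for serine fell by 0.63 in BT20 (1 higher and 1 lower of 21), the second lost without NAM library 3 (limma adjusted p = 0.0998). In BT20 7.09% of all genes were called higher and 9.3% lower. None was called in MDA-MB-468 (of 21, with 0 at an unadjusted p under 0.05) or MDA-MB-231 (of 20, with 1), and limma-voom called none there. With the block SARS2 (-0.47) and WARS2 for tryptophan (-0.36) were called lower in MDA-MB-468, and MARS2 for methionine (-0.48) in MDA-MB-231. Of the coactivators and factors of mitochondrial biogenesis none was called without the block, of 8 in MDA-MB-231, 7 in MDA-MB-468 and 7 in BT20. Of these 2, 2 and 3 had an unadjusted p under 0.05, and limma-voom called 0, 0 and 1. With the block 3 were called lower in MDA-MB-231 (PPRC1, -0.88, GABPB1, -0.69, and PPARGC1B, -0.46), and in MDA-MB-468 GABPA was called higher (0.71) and PPRC1 lower (-0.68).

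Few nuclear partners of the mtDNA-encoded subunits were called. In BT20 1 of 34 nuclear complex I subunits was called, NDUFV1, which holds the NADH site, and it fell by 0.82, a call lost without NAM library 3 (limma adjusted p = 0.0597) or any control library (0.0551 to 0.0645). Of all genes 9.3% were called lower in BT20. None of 34 was called in MDA-MB-468, with 10 at an unadjusted p under 0.05, and none of 33 in MDA-MB-231, with 0, and limma-voom called none in either. None of 9 subunits of complex III, 11 of complex IV or 17 of complex V was called in any line. In MDA-MB-468 these held 1, 3 and 4 with an unadjusted p under 0.05 and limma-voom called 1, in complex IV. In BT20 complex V held 3 and limma-voom called 1 there, and in MDA-MB-231 there were 0 by either measure.

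With the replicate block, MDA-MB-468 NAM cells had 8 complex I subunits higher and 1 lower, and 1, 3 and 4 subunits of complexes III, IV and V higher, where 14.6% of all genes were called higher and 14.5% lower. Those of complex IV were COX7A2 (log2 fold change 0.82), COX6C (0.68) and COX7C (0.63). The largest of complex I was NDUFB6 (0.76) and of complex V ATP5MK (0.77), both small membrane subunits. MDA-MB-231 had 3, 1, 2 and 1 higher in complexes I, III, IV and V under the block, and 1 complex V subunit lower, where 12.2% of all genes were called higher and 10.6% lower. The median over complex IV subunits was 0.28 in MDA-MB-231, 0.41 in MDA-MB-468 and 0.02 in BT20, and over complex I subunits it was 0.14, 0.26 and -0.002 in that order.

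Among RNAs listed to mark the library type, those of the histone genes H2AC6 and H2BC5 rose in all 3 lines. Whether these mRNAs carried a poly(A) tail here was not tested. In the MDA-MB lines these calls were lost on leaving out most single libraries (limma adjusted p up to 0.223 in MDA-MB-231 and 0.174 in MDA-MB-468). Their log2 fold changes were 3.16 and 2.79 in MDA-MB-231, 1.01 and 0.95 in MDA-MB-468, with 1.76 and 1.85 in BT20. The nuclear RNA NEAT1 fell by 0.80 in BT20. The counts of the list were 2 higher and 1 lower of 7 in BT20, and 2 higher of 8 in MDA-MB-468 and of 9 in MDA-MB-231. Of all genes, 7.09% were called higher and 9.3% lower in BT20. In MDA-MB-468 3.52% were called higher, and in MDA-MB-231 0.606%. RN7SK, RN7SL2, RMRP and RPPH1, of the same list, were at 0 in all libraries. The part that RNA selection had in the mtDNA values was not tested.

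Copies of mtDNA in the nuclear genome can take or give reads. An alignment of mtDNA to the nuclear chromosomes of GRCh38 gave 170 matches, and the longest, on chr1:629081-634924, was 98.53% identical over 5846 aligned bases. Exact nuclear copies existed for 36.3% of the 76-base windows of MT-CO1, 34.0% of MT-ND2, 28% of MT-RNR1 and 27.2% of MT-ATP6, and for none of MT-CYB, MT-ND3, MT-ND4, MT-ND4L and MT-ATP8. MT-CYB, which had the lowest adjusted p of the mRNAs in MDA-MB-468, is among the genes with no exact copy at this read length. A copy of chrM:10269-15487 on chromosome 5, with 94.06% identity, covers part of it. The part that inexact copies or reads shortened by trimming had was not tested. Of 404 annotated copies, MTATP6P1 had 2085 to 4608 reads a library, MTCO1P12 427 to 1757 and MTND2P28 359 to 2131, all on chromosome 1. Of all genes 3.52% were called higher in MDA-MB-468 NAM cells. MTCO1P12 was called higher in MDA-MB-468 NAM cells (log2 fold change 0.60, limma adjusted p = 0.0446), the only 1 of 5 copies tested there, and limma-voom called none. The call was lost on leaving out any library but control library 1 (limma adjusted p = 0.0577 to 0.206). None of 6 in BT20 (1 at an unadjusted p under 0.05) or 4 in MDA-MB-231 (0) was called by limma or limma-voom. A single read within an exact copy cannot by its own sequence be told apart from one of the mtDNA gene. For MT-CO1 this concerns the 36.3% of windows above. The methods give paired reads, and a mate outside the exact stretch may place a pair, which was not tested.

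Control cells of the 3 lines differed in a few mtDNA genes, mostly toward lower values than BT20. Both MDA-MB lines are compared with the same 3 BT20 libraries. In MDA-MB-468 1 of the 13 mRNAs was called lower, where 26.9% of the 16449 genes tested were called lower and 25.7% higher, and limma-voom called 3 (53.7% of all genes). The fitted change was above 0 for 1 of the 13 and for 48.9% of all genes, with a median of -0.45. Under quantile normalization it was above 0 for 4 (48.6% of all genes), and the median was -0.17. In MDA-MB-231 2 were called lower, where 30.8% of genes were called lower and 27.6% higher, and limma-voom called 2 (60.3% of all genes). Again 1 was above 0 (48.5% of all genes), with a median of -0.40, and 4 under quantile normalization (52.4% of all genes), when the median was -0.14. In MDA-MB-231 against MDA-MB-468 limma called none, where 25.8% of genes were called higher and 28.8% lower. There 1 had an unadjusted p under 0.05, MT-ND4L, and limma-voom called none (56% of all genes). The fitted change was above 0 for 7 of the 13 (49.6% of all genes) and for 4 under quantile normalization (54.2%), with medians of 0.07 and -0.07. The share of the 13 mRNAs called was thus below the share of all genes called in each of the 3 comparisons.

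MT-CYB had 1447, 1154 and 1106 FPKM in MDA-MB-468 control libraries, against 2690.0, 1784 and 2038 FPKM in BT20 control libraries. No MDA-MB-468 library reached the lowest BT20 library, and the log2 fold change was -0.74 (SE 0.27, 95% interval -1.36 to -0.12, limma adjusted p = 0.0461). In MDA-MB-231 control libraries MT-CYB had 1564, 869.7 and 855 FPKM, a log2 fold change against BT20 of -0.87 (SE 0.27, limma adjusted p = 0.021). MT-ND5 had 1000.3, 636 and 611 FPKM in MDA-MB-231 control libraries, against 1639, 1117 and 1324 FPKM in BT20 control libraries, a log2 fold change of -0.73 (SE 0.23, limma adjusted p = 0.0235). As deposited, both genes were lower in every MDA-MB-231 library than in any BT20 library. On the scaled values MT-ND4L was the only mRNA of that comparison whose groups did not overlap, where 36% of genes showed this toward lower values. All 3 calls were lost on leaving out BT20 control library 1 (limma adjusted p = 0.132 for MT-CYB in MDA-MB-468, and 0.0668 for MT-CYB and 0.0727 for MT-ND5 in MDA-MB-231) and on leaving out some single libraries of the other line.

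The replicate block of the control libraries also spans the MDA-MB lines, whose numbers were not taken as paired. With the replicate number as a block, 6 mRNAs were called lower in MDA-MB-468 than in BT20 (MT-CYB, MT-ND2, MT-ND5, MT-ND6, MT-CO2 and MT-ATP6), where 29.3% of genes were called lower and 28.4% higher. In MDA-MB-231 7 were called lower (MT-CYB, MT-ND4, MT-ND4L, MT-ND5, MT-ND6, MT-CO1 and MT-CO2), where 33% of genes were called lower and 30.4% higher. The 6 of MDA-MB-468 were also those whose scaled groups did not overlap, where 32.1% of genes showed this toward lower values. Leaving out the control libraries numbered 1 of all 3 lines, an alternative chosen after seeing the data, 11 were lower in MDA-MB-468 (35.9% of genes) and 10 in MDA-MB-231 (37.6% of genes) than in BT20. MT-ND2 had the largest fitted difference between the MDA-MB lines. It had 1601, 829 and 787 FPKM in MDA-MB-231 control libraries, against 814, 635 and 637 FPKM in MDA-MB-468 control libraries. The log2 fold change was 0.64 (SE 0.30, limma adjusted p = 0.0975), and the groups overlapped as deposited but not after scaling, where 27.2% of genes did not overlap toward higher values.

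**Figure D5:**
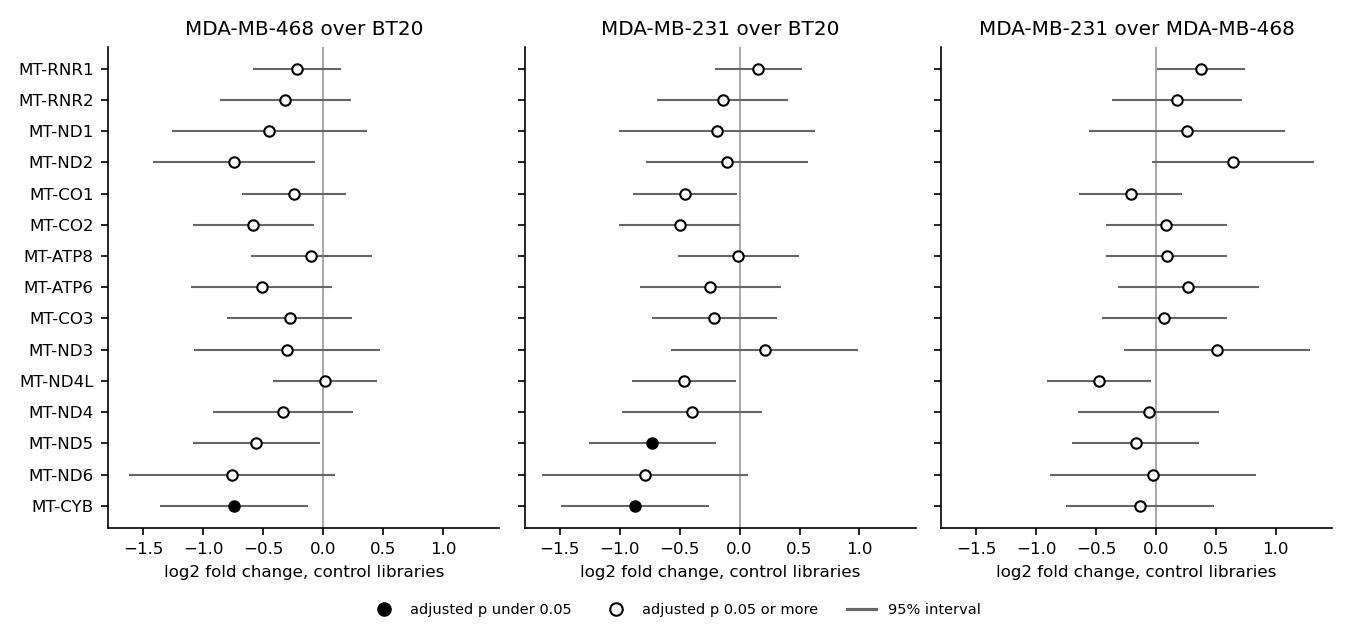
log2 fold change between control libraries of each pair of lines with its 95% interval for the 13 mtDNA mRNAs and 2 rRNAs, from limma on log2(scaled FPKM + 1). Filled points passed an adjusted p of 0.05: MT-CYB in MDA-MB-468 over BT20 (-0.74) and MT-CYB and MT-ND5 in MDA-MB-231 over BT20 (-0.87 and -0.73).

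Of 13 tRNAs tested, 3 were called lower in MDA-MB-468 than in BT20, 1 lower in MDA-MB-231 than in BT20, and 1 higher and 2 lower in MDA-MB-231 than in MDA-MB-468. Of all genes 26.9% were lower in the first comparison, 30.8% in the second, and 25.8% higher and 28.8% lower in the third. MT-TE had 54, 13 and 49 reads in MDA-MB-468 control libraries, against 265, 189 and 210 reads in BT20 control libraries, a log2 fold change of -2.48 (SE 0.71, limma adjusted p = 0.0163). MT-TQ had 71, 39 and 61 reads in MDA-MB-468 control libraries, against 306, 209 and 225 reads in BT20 control libraries, a log2 fold change of -1.89 (SE 0.61, limma adjusted p = 0.0282). MT-TA, the alanine tRNA, had 5, 8 and 4 reads, against 31, 24 and 17 reads in BT20 control libraries, a log2 fold change of -1.69 (limma adjusted p = 0.0296). None of the 3 overlapped between lines, and each call was lost with no filter on low values and without BT20 control library 1 (limma adjusted p = 0.0543 and 0.0531 for MT-TE, 0.0862 and 0.0933 for MT-TA, 0.0825 and 0.0865 for MT-TQ). MT-TT had 144, 57 and 89 reads in MDA-MB-468 control libraries, against 46, 25 and 28 reads in BT20 control libraries, without overlap in the other direction, as 31.4% of genes were (log2 fold change 1.70, limma adjusted p = 0.113, with the replicate block 0.0113). MT-TP was called higher in MDA-MB-468 only with the block (0.56, limma adjusted p = 0.0081).

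MT-TY libraries of 1 line differed little in MDA-MB-231 and MDA-MB-468. It had 238, 248 and 262 FPKM in MDA-MB-231 control libraries, against 347, 463 and 609.8 FPKM in BT20 control libraries and 452, 467 and 455 FPKM in MDA-MB-468 control libraries. MDA-MB-231 was below every library of both other lines (a pattern that 30.8% of genes showed against MDA-MB-468), with log2 fold changes of -0.74 over BT20 (SE 0.18, limma adjusted p = 0.00702) and -0.79 over MDA-MB-468 (SE 0.18, limma adjusted p = 0.00549). Both calls were kept in every alternative except scaling on the mtDNA mRNAs themselves (limma adjusted p = 0.405 and 0.0752). MT-TT had 47, 10 and 7 reads in MDA-MB-231 control libraries, against 144, 57 and 89 reads in MDA-MB-468 control libraries, a log2 fold change of -2.54 (SE 0.82, limma adjusted p = 0.026, and 0.0806 with no filter on low values). MT-TQ had 374, 122 and 129 reads in MDA-MB-231 control libraries, against 71, 39 and 61 reads in MDA-MB-468 control libraries, a log2 fold change of 1.62 (SE 0.61, limma adjusted p = 0.0496). For MT-TT the groups overlapped in FPKM (62.9 in MDA-MB-231 control library 1, against 59.0 in MDA-MB-468 control library 2), and for MT-TQ they did not. The MT-TQ call was lost in 9 alternatives, including leaving out any MDA-MB-468 library, and without MDA-MB-231 control library 1 its log2 fold change was 0.85 (limma adjusted p = 0.0641).

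Neither rRNA was called between lines by limma or limma-voom, and 1 value had an unadjusted p under 0.05. This was MT-RNR1, with 857, 657 and 649 FPKM in MDA-MB-231 control libraries, against 667, 525 and 576 FPKM in MDA-MB-468 control libraries (log2 fold change 0.37, limma adjusted p = 0.0771). The groups overlapped as deposited and not after scaling, where 27.2% of genes did not overlap. Without the control libraries numbered 1 of all 3 lines, both rRNAs were called lower in MDA-MB-468 than in BT20, MT-RNR2 lower in MDA-MB-231 than in BT20, and MT-RNR1 higher in MDA-MB-231 than in MDA-MB-468. Of all genes, 35.9% were then called lower in MDA-MB-468 than in BT20, and 37.6% lower in MDA-MB-231 than in BT20. For MDA-MB-231 over MDA-MB-468 the share in that fit is not given here. With all control libraries, 25.8% of genes were called higher in that comparison.

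The nuclear lists were also compared between control cells. The shares of all genes called, beside which the counts of every list stand, were 25.7% higher and 26.9% lower in MDA-MB-468 over BT20, 27.6% higher and 30.8% lower in MDA-MB-231 over BT20, and 25.8% higher and 28.8% lower in MDA-MB-231 over MDA-MB-468. Of 18 transcription and replication genes, 7 were higher and 3 lower in MDA-MB-468 than in BT20. In MDA-MB-231 11 were higher and 1 lower than in BT20, among them TWNK, the mtDNA helicase (1.85), MTERF3 (1.24), TFAM, which packages mtDNA and starts its transcription (1.14), and the polymerase POLRMT (1.01), with RNASEH1 lower (-0.48). Against MDA-MB-468, MDA-MB-231 had 8 higher and 4 lower, led by MTERF3 (1.26) and RNASEH1 (-1.45).

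Beside the same shares of all genes (25.7 and 26.9%, 27.6 and 30.8%, and 25.8 and 28.8% higher and lower), of 38 RNA processing genes 8 were higher and 5 lower in MDA-MB-468 than in BT20, 14 higher and 1 lower in MDA-MB-231 than in BT20, and 10 higher and 5 lower in MDA-MB-231 than in MDA-MB-468. SUPV3L1, the helicase of the degradosome, was higher in MDA-MB-468 (1.11) and MDA-MB-231 (1.37) than in BT20, and TRMT61B was lower in MDA-MB-231 than in both (-1.41 over BT20 and -1.2 over MDA-MB-468). In the same 3 comparisons 3 higher and 4 lower, 5 higher and 2 lower, and 4 higher and 0 lower of 16 translation factors were called (limma-voom called 7, 6 and 4 in all, and 7, 9 and 4 had an unadjusted p under 0.05). For 21 synthetases the counts were 6 higher and 5 lower, 5 higher and 7 lower, and 6 higher and 9 lower, with GARS1 at 1.53 and 1.61 over BT20. For 8 biogenesis genes 2, 3 and 1 were higher, with PPRC1 at 1.41 and 2.35 over BT20, and no other was called (3, 3 and 1 had an unadjusted p under 0.05, and limma-voom called 2, 3 and 1).

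Among nuclear respiratory subunits, complex I had 6 higher and 2 lower of 34 in MDA-MB-468 over BT20 (25.7 and 26.9% of all genes), 8 higher and 3 lower in MDA-MB-231 over BT20 (27.6 and 30.8%), with NDUFS4 at 2.12, and 2 higher and 4 lower in MDA-MB-231 over MDA-MB-468 (25.8 and 28.8%). Complex IV had 2, 3 and 1 higher of 11, complex III had 2, 3 and 0 of 9 (with no unadjusted p under 0.05 and no limma-voom call for the 0), and complex V had 4, 5 and 3 of 17, with 1 lower (ATP5MC3) in MDA-MB-468 over BT20. The library-type RNAs had 3 higher and 1 lower, 2 higher and 2 lower, and 2 higher and 2 lower of 9. Nuclear copies of mtDNA genes had 2 lower in MDA-MB-468 than in BT20 (MTND2P28, -0.96, and MTCO2P12, -0.89), 1 lower in MDA-MB-231 than in BT20, and 2 higher in MDA-MB-231 than in MDA-MB-468 (MTCO1P12, 1.00, and MTND2P28, 0.74). MTND2P28 thus had the sign of MT-ND2 in both, a gene with which it shares sequence. MTCO1P12 did not follow MT-CO1 in this way. As deposited, MT-CO1 had a mean of 1553 FPKM in MDA-MB-231 control libraries, against 1925 FPKM in MDA-MB-468 control libraries.

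Across the 18 libraries the mRNAs moved together within groups. As a description, the median correlation of deviations from group means over the 78 pairs of mRNAs was 0.869, from 0.182 (MT-CO3 with MT-ND4L) to 0.992 (MT-ND1 with MT-ND4). These points share library, depth and scaling. MT-ND4L had a median correlation of 0.432 with the other 12, where the other mRNAs had 0.768 to 0.916. MT-ND4L was also the one mRNA whose MDA-MB-231 groups did not overlap under NAM.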

How the data were processed

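RNA of 18 libraries (3 lines, NAM and control, 3 replicates each, grouped by their labels) was sequenced as paired 76-base reads. Per the methods and the submitters' processing notes, the authors trimmed reads with cutadapt 2.8, used TopHat2 2.1.1 to align them to GRCh38.p13 and HTSeq 0.11.3 to count them per gene. The deposited FPKM values are those counts divided by Ensembl gene length and a library total. The values gave whole reads for 39934 of 39935 genes above 0 (tolerance 0.01 reads). The totals recovered were those of protein-coding reads, so that they hold the 13 mtDNA mRNAs but not the rRNAs or tRNAs. Precision thus varies with depth, and a count of 0 allows up to 3 reads, for counting error only.

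Of 60676 genes, 42009 had a symbol. FPKM was divided by a median-ratio factor over nuclear genes, and log2(value + 1) was tested with limma 3.58.1 (R 4.3.3) for genes at FPKM 1 or more in at least 3 libraries of the fit, with Benjamini-Hochberg adjustment over all genes tested. Fold changes are on this scale, which understates those of low genes. A gene was called at an adjusted p under 0.05. NAM was compared with control per line on 6 libraries, control lines on 9, and differences between lines on 18. The script was tested on simulated data.

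The members and lists were chosen with earlier results of these data known. Described individually were all mRNAs and rRNAs, tRNAs with a median of at least 20 reads, and up to 4 list genes per direction with the largest called changes. The lists were nuclear copies of mtDNA genes, transcription and replication, RNA processing, translation factors, synthetases, biogenesis, complexes I, III, IV and V, and RNAs that mark the library type. Alternatives were quantile, no or mtDNA scaling, a pseudocount of 0.1, other filters, limma with trend and robust, limma-voom, a replicate block and left-out libraries. Deviations of same-numbered libraries from group means correlated above 0.1 in every pair in MDA-MB-468 (0.112 to 0.708) and MDA-MB-231 (0.644 to 0.748) under NAM, and between control libraries of BT20 and MDA-MB-468 (0.128 to 0.267) or BT20 and MDA-MB-231 (0.461 to 0.658). The numbers were taken to pair these samples, from the data alone, and not for NAM in BT20 (-0.097 to 0.125) or between the MDA-MB lines (-0.0255 to 0.357). Some unlike numbers correlated nearly as highly or more so. In MDA-MB-468, NAM library 3 had 0.328 with control library 2 and 0.112 with control library 3. In MDA-MB-231, NAM library 3 had 0.733 with control library 2 and 0.739 with control library 3. Libraries 2 and 3 are thus not clearly paired by number, and the block calls rest on this pairing. Nuclear copies were found with BLAST+ 2.17.0 on GRCh38.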

Additional observations from a re-analysis of the deposited data

Results flagged for a closer look

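None of the mtDNA genes had a response to NAM that differed between lines by the limma interaction test. A few nuclear genes of the lists did, and their differences in log2 fold change are given here. GARS1, the glycyl-tRNA synthetase of cytosol and mitochondria, had a lower log2 fold change under NAM than in BT20, by -1.41 in MDA-MB-231 (limma adjusted p = 0.00389) and by -1.14 in MDA-MB-468 (0.0155). The second call was lost in 3 of 10 alternatives and 2 of 12 runs that left out a library. SUPV3L1, the degradosome helicase, differed from BT20 by -0.76 in MDA-MB-231 (limma adjusted p = 0.00758) and by -0.57 in MDA-MB-468 (0.0389), the second lost in 11 of 12 runs that left out a library. MTRF1L, a peptide release factor, differed from BT20 by -1.02 in MDA-MB-231 (limma adjusted p = 0.0433) and was lost in 9 of 12 such runs. The histone genes H2AC6 and H2BC5 rose more in MDA-MB-231 than in MDA-MB-468, by 2.17 (limma adjusted p = 0.00413) and 1.85 (0.0196), the second lost in 5 of 12 such runs.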

How the results depend on the processing

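Of 3633 values of mtDNA genes called neither in the main fit nor in the alternative, 338 had the other sign. Most alternatives reuse nearly all of the same libraries, so that a kept sign is no separate support. In addition, 1 called value reversed: MT-TE under NAM in MDA-MB-231 was 0.69 (limma adjusted p = 0.0202) without both libraries numbered 1, against -0.30 with them. No alternative that was run called an mtDNA mRNA under NAM in BT20 or in a difference between lines. Causes of these changes were not tested. Reads below 3 could not be told from 0, and tests of 3 against 3 libraries had wide intervals. edgeR and DESeq2 were not run, since the deposited unit is FPKM, and limma-voom on recovered reads was chosen after seeing the data in their place.

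Under NAM in MDA-MB-468, 0 mRNAs were called higher, against 1 with no further normalization, no filter, trend and robust, or limma-voom, 5 with the replicate block, 9 without both libraries numbered 1, and 0 to 2 on leaving out single libraries (2 without control library 1). In MDA-MB-231 the 0 became 6 without both libraries numbered 1. In MDA-MB-468 over BT20 control cells 1 mRNA was called lower, against 2 with quantile normalization, 4 with no further normalization, 3 with a filter on every library or limma-voom, and 6 with the replicate block. The count was 0 with mtDNA scaling, a pseudocount of 0.1, no filter, or trend and robust, 0 to 2 on leaving out single libraries (2 without BT20 control library 2), and 10 without MDA-MB libraries numbered 1. That alternative kept BT20 control library 1, where all 13 mRNAs lay above their group mean, and left out MDA-MB control libraries that did so too. It thus widens the gap below BT20 by construction and favours lower calls. Without control libraries numbered 1 of all 3 lines, chosen after seeing the data, 11 were called lower. In MDA-MB-231 over BT20, 2 were called lower, against 5 with quantile normalization, no further normalization or a filter on every library, 1 with mtDNA scaling, 0 with no filter, 7 with the replicate block, 0 to 8 on leaving out single libraries (8 without MDA-MB-231 control library 1, 0 without BT20 control library 1), and 10 either without MDA-MB libraries numbered 1 or without those of all 3 lines. With mtDNA scaling 1 (MT-ND3) was called higher. In MDA-MB-231 over MDA-MB-468, 0 were called in either direction, against 2 higher and 2 lower with quantile normalization and 1 higher with mtDNA scaling. There was 1 lower with no further normalization or a filter on every library, and 0 to 1 lower on leaving out single libraries. Without control libraries numbered 1 of all 3 lines, 1 was higher and 4 lower. The share of all genes called is not given for every alternative. Counts without it are not read as results about the mtDNA genes.

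The replicate block in MDA-MB-231 over MDA-MB-468, where the numbers share no pairing, gave 2 mRNAs higher and 1 lower. Of all genes 28.5% were called higher there and 31.1% lower. In BT20 under NAM the block left the count of mRNAs at 0 and took the 3 RNA processing genes called higher to 0. Of 18 group means of read shares, 2 moved by more than 1 SD with reads of all genes as denominator, 2 with those of nuclear genes, and 1 with nuclear copies added.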
